A study of Mus musculus with 6 samples.

Results

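The 9 genes described here are known from the wall of blood vessels. They were read in mouse epididymal white adipose tissue, the fat depot beside the epididymis. Of these, 5 are known for endothelial cells, which line the vessels (Eng, Pecam1, Emcn, Aqp1 and Gpihbp1). The other 4 are known for mural cells, the pericytes and smooth muscle cells that surround the lining (Actg2, Abcc9, Kcnj8 and Synpo2). They were taken by name, by a rule that sets no measured value but was written with earlier results of these data known, and all 9 were among the 3162 genes in the deposited values. RNA was sequenced from whole tissue of male wild-type C57BL/6J mice aged 16 weeks. There were 3 mice deprived of food for 24 h (fasted) and 3 mice fed normally (fed), each mouse giving 1 library. No allele, transgene or agent other than the fast is named in the labels. A level is given as FPKM, a count of sequenced fragments divided by transcript length and by the size of the library, so levels of different genes are compared per length.

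Capillaries bring fat depots their oxygen and fuel. Endothelial cells carry lipases on their inner surface, which free fatty acids from circulating lipoproteins, and mural cells set the vessel's diameter and its blood flow. In whole tissue, fewer cells of a type and less RNA per cell cannot be told apart, and a share of the total can move because other RNA moves. The table holds 3162 of the 55450 annotated genes, and the rule by which its authors kept them is not given in the sources. Of the 2999 genes whose mean reached 1 FPKM, limma called 2714 (90.5%) different at a Benjamini-Hochberg adjusted p under 0.05, 1232 (41.1%) higher in fasted tissue and 1482 (49.4%) lower. After median-ratio scaling of the libraries the split was 1240 higher and 787 lower. Every member passed the low-value filter and was called, 7 higher and 2 lower in fasted tissue, and with a background of 90.5% such a count is no result about vessels. Since nearly all genes held differ between the groups, they may have been kept for that, and each member's p-value is given beside a stricter one, adjusted as if all 21951 annotated protein-coding genes had been tested. By that adjustment 1052 of the 2999 genes (35.1%) and 8 of the 9 members were called, all but Emcn. The members were chosen with earlier results of these data known, so this count is no result about vessels either.

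The names were set beside defining markers of each cell type, of which Pecam1 is itself a member. Of the endothelial markers, Pecam1 and Tek were measured in every library, while Cdh5, Kdr, Vwf and Cldn5 are not among the genes held. Of the mural markers, Pdgfrb, Cspg4, Tagln and Myh11 were measured in every library, while Rgs5 and Acta2 are not among the genes held. None of the markers held was at 0, which cannot tell from which cells the RNA of the members came. Genes known for other cells were called in the same libraries, beside 41.1% called higher and 49.4% called lower over all tested genes. All 10 tested adipocyte genes of a list of 22 were called lower in fasted tissue, where their summed FPKM was 3987 to 4921, against 7204 to 8370 in fed tissue. All 5 tested erythrocyte genes of a list of 8 rose in fasted tissue, where their summed FPKM was 3955 to 10136, against 1892 to 2800 in fed tissue. Both lymphatic endothelial genes tested, of a list of 9, rose as well, with the 3 genes held summing to 35.1 to 72.1 FPKM in fasted and 2.1 to 19.8 FPKM in fed tissue. Of 12 tested fibroblast and preadipocyte genes, 4 rose and 8 fell, and of 4 tested macrophage genes 2 rose and 2 fell. The 1 mesothelial gene and the 2 Schwann and nerve genes tested fell, and the 1 lymphocyte and the 1 epididymis or testis gene held were under the filter. Adjustment over protein-coding genes called 35.1% of all tested genes. With it, 7 adipocyte genes, 4 fibroblast and preadipocyte genes and 2 Schwann and nerve genes were called lower. By that adjustment 2 erythrocyte genes, 1 lymphatic gene and 1 macrophage gene were called higher, and 0 mesothelial genes were called. The part these changes played in the values below was not tested.

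Stretches just before the transcript start of 4 members are shown, because they pair genes that the results set side by side. Eng and Aqp1 are endothelial genes that moved in opposite directions. Kcnj8 and Abcc9 are neighbours on chromosome 6 and encode the subunits of one channel. The sequences are RefSeq's, from build GRCm38.p6, and run 5′ to 3′ on the gene's own strand. Eng is at chr2:32646345-32646594 on the plus strand and Aqp1 at chr6:55336049-55336298 on the plus strand. Abcc9 is at chr6:142702316-142702524 on the minus strand and Kcnj8 at chr6:142571615-142571864 on the minus strand. Capitals mark CCACCC, or GGGTGG where it lies on the opposite strand, the CACCC-type motif that Krüppel-like factors are known to bind.
Eng: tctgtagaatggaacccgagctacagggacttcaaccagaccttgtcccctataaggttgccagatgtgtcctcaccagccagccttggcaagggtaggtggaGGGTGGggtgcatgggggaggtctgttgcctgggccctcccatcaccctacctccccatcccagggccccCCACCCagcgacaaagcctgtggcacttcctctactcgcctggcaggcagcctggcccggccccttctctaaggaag
Aqp1: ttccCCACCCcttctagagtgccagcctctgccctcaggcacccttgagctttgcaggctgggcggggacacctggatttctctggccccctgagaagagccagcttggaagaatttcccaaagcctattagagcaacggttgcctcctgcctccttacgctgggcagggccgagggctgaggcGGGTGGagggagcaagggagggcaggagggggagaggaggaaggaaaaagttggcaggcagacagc
Abcc9: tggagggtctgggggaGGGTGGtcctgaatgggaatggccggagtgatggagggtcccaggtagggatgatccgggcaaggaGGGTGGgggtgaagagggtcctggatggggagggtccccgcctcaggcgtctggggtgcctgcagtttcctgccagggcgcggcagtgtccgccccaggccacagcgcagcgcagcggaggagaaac
Kcnj8: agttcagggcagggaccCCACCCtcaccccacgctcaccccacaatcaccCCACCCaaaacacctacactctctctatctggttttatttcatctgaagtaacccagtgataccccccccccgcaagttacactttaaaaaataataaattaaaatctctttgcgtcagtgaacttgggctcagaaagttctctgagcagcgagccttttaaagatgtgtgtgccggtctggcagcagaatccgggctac
Each stretch as printed holds the motif at 2 places. The stretch of Abcc9 is 209 bases long, since it ends before an annotated exon, while the others are 250 bases. The whole window of Abcc9 holds the motif at 1 place on the gene's strand and 2 on the opposite strand. Windows of the 250 bases before the start, over the whole table, hold it in 9223 of 32851 cases (28.1%), so a match is common, and it is a description and not a binding site. The windows of Emcn and Synpo2 hold none. The core motif of ETS factors, GGAA on either strand, was in the windows of Eng, Emcn, Aqp1, Abcc9 and Synpo2, and in 93.4% of all windows. The CArG box, which serum response factor is known to bind in muscle genes, was in none of the 6 members' windows and in 1.47% of all windows. Pecam1, Gpihbp1 and Actg2 were not matched in the sequence table. Bases G and C made up 62.4% of the Eng stretch and 62.0% of the Aqp1 stretch, against 49.2% in Kcnj8 and 68.4% in Abcc9.

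Pecam1, Eng and Gpihbp1 rose by about 1 on the log2 scale in fasted tissue, Emcn rose by 0.50 and Aqp1 fell. Pecam1 encodes an adhesion molecule at the junctions between endothelial cells, also carried by platelets and some leukocytes, and its gene spans chr11:106654217-106750628 on the minus strand (ENSMUSG00000020717). Pecam1 was at 174, 189 and 129 FPKM in fasted mice, against 89.3, 87.4 and 75.7 FPKM in fed mice. Every fasted library lay above every fed one, as was the case for 1223 of the 2999 genes (40.8%). The means were 164 ± 31.4 FPKM fasted and 84.1 ± 7.39 FPKM fed (SD, n = 3 mice each), a ratio of 1.95. On the scale of log2(FPKM + 1), used for all fold changes here, the difference was 0.94 ± 0.17 (SE; limma adjusted p = 0.00333, and 0.0244 over protein-coding genes).

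Eng encodes endoglin, a co-receptor for ligands of the TGF-beta family on endothelial cells, at chr2:32646595-32682669 on the plus strand (ENSMUSG00000026814). It was at 156, 155 and 120 FPKM in fasted mice, against 73.0, 65.8 and 67.5 FPKM in fed mice. The groups did not overlap, and fasted replicate 3 was the lowest fasted library, as it was for Pecam1. The log2 difference was 1.04 ± 0.14 (SE; limma adjusted p = 0.00143, and 0.0105 over protein-coding genes). In the annotation, 2 exons of Fpgs on the opposite strand overlap those of Eng, and whether the counting used strand is not stated.

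Gpihbp1 encodes the anchored protein that carries lipoprotein lipase across capillary endothelium and holds it at the vessel's inner surface. The gene lies at chr15:75596628-75599481 on the plus strand (ENSMUSG00000022579). Its level was the highest of the 9 genes in both groups, at 639, 482 and 474 FPKM in fasted mice, against 273, 249 and 282 FPKM in fed mice. The groups were separate, with fasted replicate 1 well above the other two fasted libraries. The log2 difference was 0.97 ± 0.15 (SE; limma adjusted p = 0.00229, and 0.0168 over protein-coding genes).

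Emcn encodes endomucin, a sialic acid rich mucin on the surface of capillary and venous endothelium, at chr3:137341067-137432185 on the plus strand (ENSMUSG00000054690). It was at 56.2, 53.5 and 52.9 FPKM in fasted mice, against 35.5, 42.3 and 36.8 FPKM in fed mice. The groups did not overlap, but the fold was the smallest among the members that rose. The log2 difference was 0.50 ± 0.12 (SE; limma adjusted p = 0.00756). It was not called over protein-coding genes, where the adjusted p was 0.0553.

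Aqp1 encodes a water channel of endothelial cells that red blood cells also carry, at chr6:55336432-55348555 on the plus strand (ENSMUSG00000004655). It was at 174, 148 and 153 FPKM in fasted mice, against 233, 236 and 233 FPKM in fed mice. All fasted libraries were below all fed ones, which held for 1577 of the 2999 genes (52.6%). The log2 difference was -0.56 ± 0.11 (SE; limma adjusted p = 0.00499, and 0.0365 over protein-coding genes). The median difference over all tested genes was -0.34, and after quantile scaling of the libraries the difference of Aqp1 was -0.27 with a limma adjusted p of 0.0581. Aqp1 was therefore lower in fasted tissue in these units but its call was lost under that scaling. The summed erythrocyte genes, at 3955 to 10136 FPKM in fasted and 1892 to 2800 FPKM in fed mice, differed between the groups too, and their part in the level of Aqp1 was not tested.

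**Figure D1:**
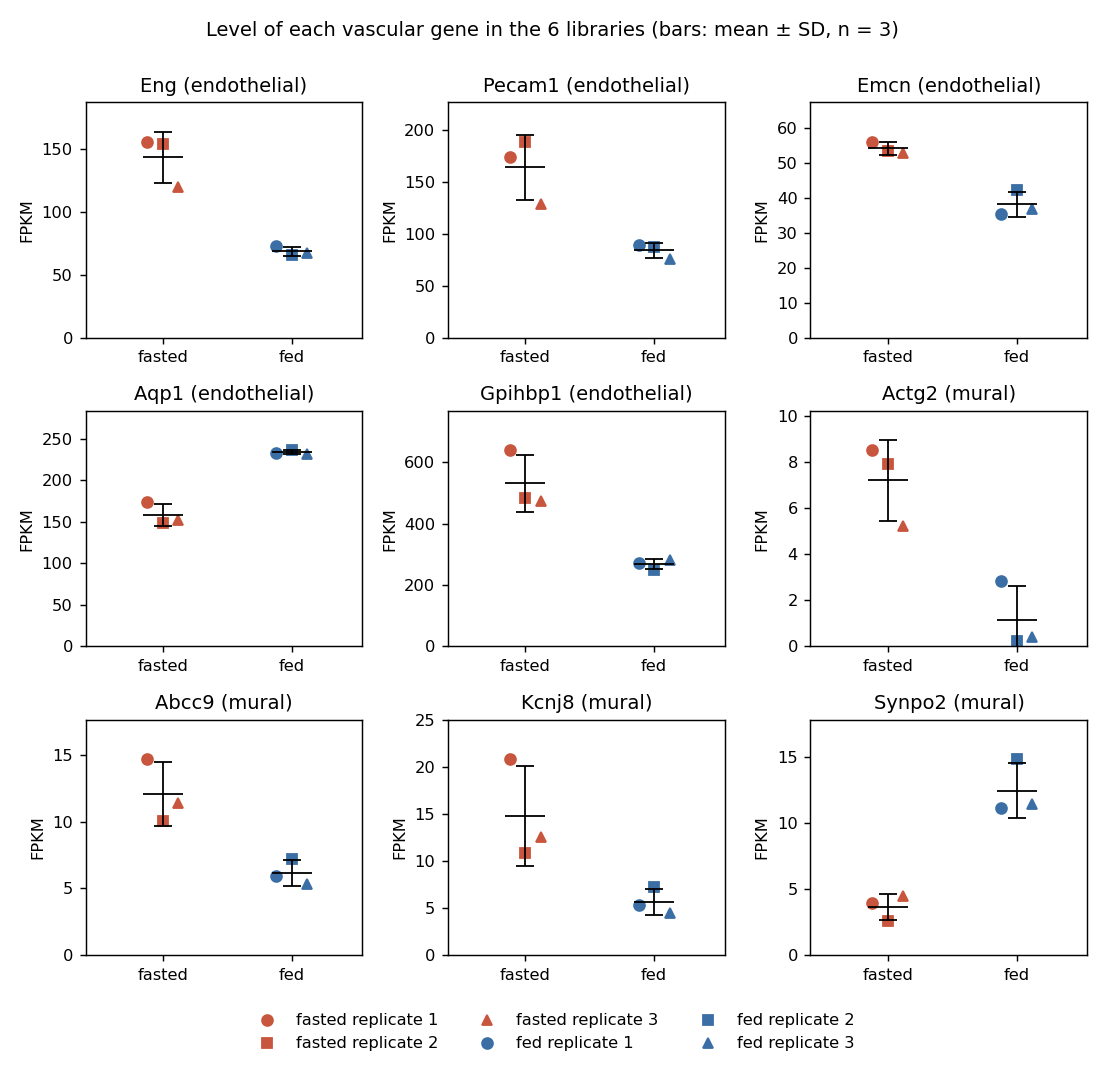
FPKM of each of the 9 genes in each library, with 1 panel per gene and its own axis starting at 0. Points are the 3 fasted mice on the left and the 3 fed mice on the right, and bars are the mean and SD: Aqp1 and Synpo2 are the 2 genes with fasted points below fed points, and Actg2 has 1 fed library apart from the other two.

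Ratios between genes of the same library set the members against each other without the scaling between libraries. The Eng to Pecam1 ratio averaged 0.882 ± 0.0574 in fasted and 0.821 ± 0.0692 in fed mice (SD, n = 3 each; exact permutation p = 0.2, two-sided). The Gpihbp1 to Pecam1 ratio averaged 3.30 ± 0.647 in fasted and 3.21 ± 0.463 in fed mice (SD, n = 3 each; exact permutation p = 1.0). Both differences were smaller than the SD among fed libraries, and 3 mice a group do not show that the genes moved alike. The Aqp1 to Pecam1 ratio was 0.997, 0.785 and 1.19 in fasted mice, against 2.61, 2.71 and 3.07 in fed mice. Its groups were far apart, with a mean in fasted mice 0.35 times that in fed mice and an exact permutation p of 0.1, the smallest that 3 against 3 can give. Aqp1 was lower and Pecam1 higher in every fasted library than in any fed one. Their ratio therefore had to separate the groups, and its p adds nothing to the single-gene results. Emcn to Pecam1 averaged 0.339 ± 0.0653 in fasted and 0.456 ± 0.0505 in fed mice (SD, n = 3 each; exact permutation p = 0.2).

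Among mural genes, both channel subunits rose, Actg2 rose against a low level that differed widely among fed mice, and Synpo2 fell. Abcc9 encodes the sulfonylurea receptor subunit, and Kcnj8 the pore subunit, of the ATP-sensitive potassium channel of pericytes and vascular smooth muscle, whose opening relaxes the vessel wall. Abcc9 lies at chr6:142587862-142702315 (ENSMUSG00000030249) and Kcnj8 at chr6:142564837-142571614 (ENSMUSG00000030247), both on the minus strand with 16247 bases between them. Abcc9 was at 14.7, 10.1 and 11.4 FPKM in fasted mice, against 5.91, 7.20 and 5.35 FPKM in fed mice. Kcnj8 was at 20.9, 10.9 and 12.5 FPKM in fasted mice, against 5.32, 7.19 and 4.51 FPKM in fed mice. Neither gene's groups overlapped, and in both genes fasted replicate 1 was the highest of all libraries and fed replicate 2 the highest fed one. The log2 difference of Abcc9 was 0.86 ± 0.18 (SE; limma adjusted p = 0.00522, and 0.0382 over protein-coding genes). That of Kcnj8 was 1.21 ± 0.25 (SE; limma adjusted p = 0.00564, and 0.0412 over protein-coding genes). Without fasted replicate 1 it was 0.95. An exon of the antisense gene 5330439B14Rik overlaps one of Abcc9, and their reads cannot be told apart here if strand was not used.

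The Kcnj8 to Abcc9 ratio was 1.42, 1.08 and 1.10 in fasted mice, against 0.900, 0.999 and 0.843 in fed mice. The fasted ratios were all higher, at 1.31 times the fed mean, with an exact permutation p of 0.1, the smallest possible here. Pdgfrb, the receptor through which platelet-derived growth factor recruits pericytes, was used as a common denominator. The Abcc9 to Pdgfrb ratio averaged 0.495 ± 0.035 in fasted and 0.496 ± 0.101 in fed mice (SD, n = 3 each; exact permutation p = 1.0). The Kcnj8 to Pdgfrb ratio averaged 0.594 ± 0.0877 in fasted and 0.454 ± 0.108 in fed mice (SD, n = 3 each; exact permutation p = 0.2). The Pdgfrb to Pecam1 ratio, of a pericyte and an endothelial marker, averaged 0.151 ± 0.0331 in fasted and 0.150 ± 0.0231 in fed mice (SD, n = 3 each; exact permutation p = 1.0). With 3 mice a group, near equal means do not show that the genes moved alike.

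**Figure D2:**
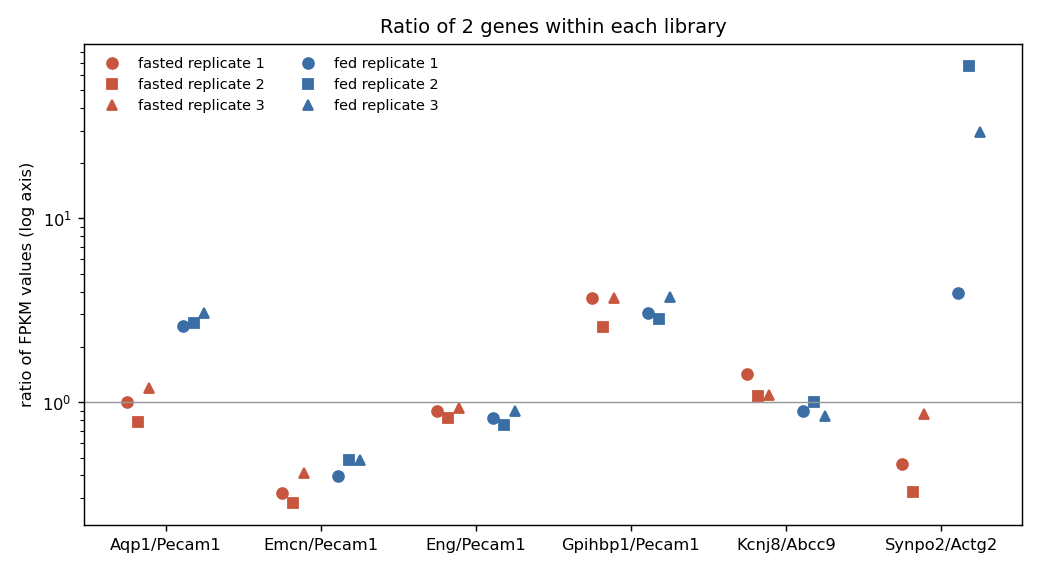
Ratios of FPKM between genes of the same library on a log axis, with the 3 fasted libraries left of the 3 fed libraries for each ratio, 1 marker shape per replicate number (which pairs no mice) and a line at 1. The Aqp1 to Pecam1 and Synpo2 to Actg2 ratios are lower in every fasted library than in any fed one. The opposite moves of the genes in each of these ratios require this. The Gpihbp1 to Pecam1 and Eng to Pecam1 ratios overlap between groups.

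Actg2 encodes the gamma-actin of smooth muscle, a contractile actin typical of visceral muscle, at chr6:83512905-83536265 on the minus strand (ENSMUSG00000059430). It was at 8.51, 7.90 and 5.21 FPKM in fasted mice, against 2.82, 0.22 and 0.39 FPKM in fed mice. The groups did not overlap, but fed replicate 1 was well above the other two fed libraries, and those are too low for a precise fold. The log2 difference was 2.11 ± 0.42 (SE; limma adjusted p = 0.00478, and 0.0350 over protein-coding genes). It was 2.63 without fed replicate 1 and 3.21 with a pseudocount of 0.1 in place of 1, so the size of the change depended on low values. Actins are close copies of each other, and reads shared with Acta2 (not analysed here) could be split between them by the authors' counting.

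Synpo2 encodes synaptopodin 2, an actin-bundling protein of muscle cells, at chr3:123076519-123236149 on the minus strand (ENSMUSG00000050315). It was at 3.92, 2.58 and 4.47 FPKM in fasted mice, against 11.1, 14.9 and 11.4 FPKM in fed mice. The groups were wide apart, and the means were 3.66 ± 0.972 FPKM fasted and 12.5 ± 2.08 FPKM fed (SD, n = 3 each). The log2 difference was -1.54 ± 0.20 (SE; limma adjusted p = 0.00132, and 0.00968 over protein-coding genes). Synpo2 thus moved against the other mural genes, as Aqp1 did against the other endothelial genes. The Synpo2 to Actg2 ratio was 0.461, 0.327 and 0.858 in fasted mice, against 3.94, 67.5 and 29.3 in fed mice. The wide spread among fed mice follows Actg2, which is near 0 in 2 of them (exact permutation p = 0.1, the smallest possible). Since Synpo2 was lower and Actg2 higher in every fasted library, the ratio had to separate the groups. Its p adds nothing to the single-gene results.

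**Figure D3:**
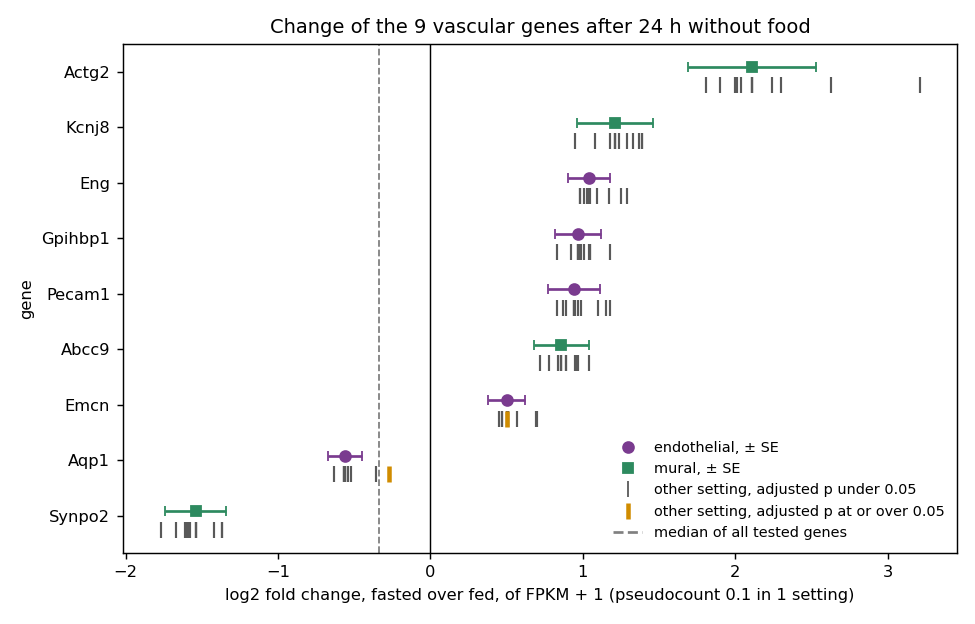
Log2 fold change, fasted over fed, of the 9 genes, with the SE as a bar and ticks under each gene for the 12 other settings of the processing. No tick lies on the other side of 0 from its gene, and the 2 wider ticks mark Aqp1 after quantile scaling and Emcn with adjustment over protein-coding genes, where the adjusted p was at or over 0.05.

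The order of the 9 levels differed between the groups. In fasted tissue Gpihbp1 was highest at a mean of 532 FPKM, followed by Pecam1 (164), Aqp1 (158) and Eng (144 FPKM), whose neighbours in the order overlapped. Emcn (54.2), Kcnj8 (14.8), Abcc9 (12.0), Actg2 (7.21) and Synpo2 (3.66 FPKM) came after them, and of these only Kcnj8 and Abcc9 overlapped. In fed tissue the order was Gpihbp1 (268), Aqp1 (234), Pecam1 (84.1), Eng (68.8) and Emcn (38.2 FPKM), with no overlap between neighbours. Synpo2 (12.5), Abcc9 (6.15), Kcnj8 (5.67) and Actg2 (1.14 FPKM) followed, and again only Abcc9 and Kcnj8 overlapped. Synpo2 was thus the highest of the mural genes in fed tissue and the lowest in fasted tissue.

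Endothelial genes were read from a list of 72, of which 38 were held and 36 tested, the 5 endothelial members included. Of these 36 genes, 27 were called higher (4 of them members) and 8 lower (1 a member), beside 41.1% and 49.4% over all tested genes. The median log2 difference was 0.71 beside -0.34 over all tested genes, and over protein-coding genes 12 were called higher and 4 lower. This list, like those below, was chosen with earlier results of these data known, and the genes held may have been kept for differing. These counts therefore describe the genes held and do not show how endothelial genes at large moved. The count called lower was 4 after median-ratio scaling, 3 after quantile scaling, and 5 without fasted replicate 2 or without fed replicate 2. Among the genes named by the smallest p, those that rose encode surface receptors of the endothelium. Clec14a, a lectin-like receptor, was at a log2 difference of 1.24 ± 0.19 (SE; limma adjusted p = 0.00218) and Adgrl4, an adhesion receptor, at 0.79 ± 0.12 (SE; limma adjusted p = 0.00228). Those that fell encode chains of type IV collagen, the scaffold of basement membranes. Col4a1 was at 164.5 ± 13.7 FPKM in fasted and 321 ± 20.0 FPKM in fed mice (SD, n = 3 each), a log2 difference of -0.96 ± 0.12 (limma adjusted p = 0.00125). Col4a2, its partner chain, was also at -0.96 ± 0.13 (SE; limma adjusted p = 0.00153). The marker Tek, an angiopoietin receptor, rose with a log2 difference of 0.66 ± 0.16 (SE; limma adjusted p = 0.00774, and 0.0567 over protein-coding genes).

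**Figure D4:**
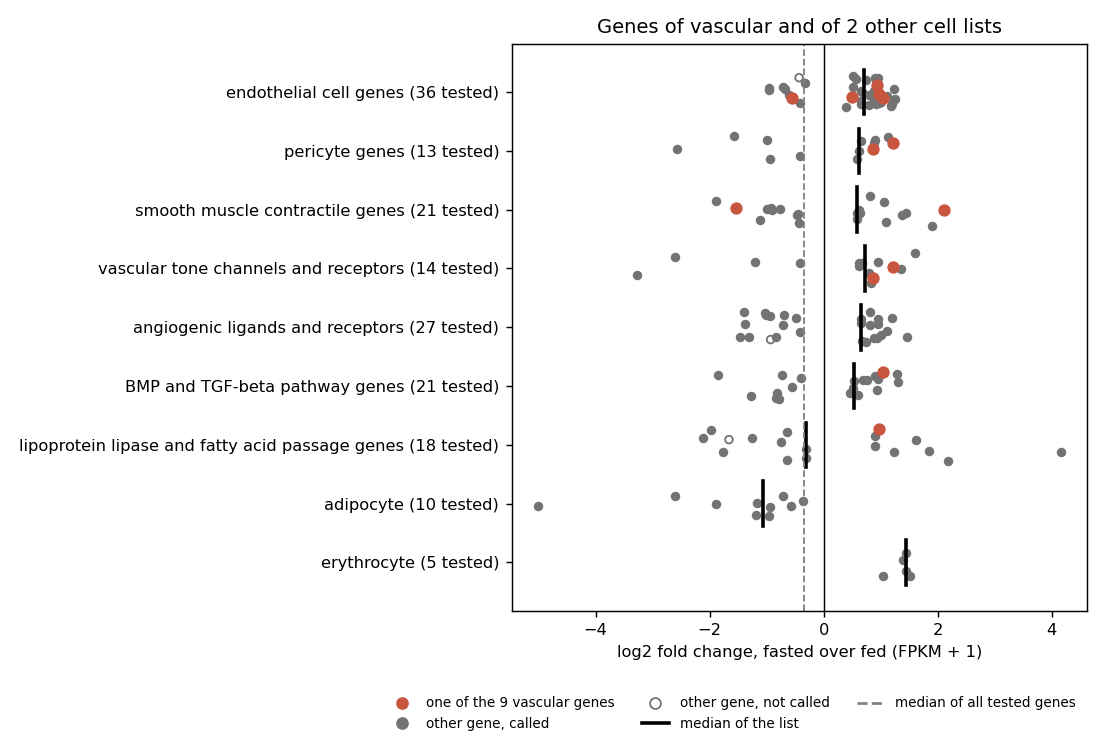
Log2 fold change, fasted over fed, of each tested gene of 7 vascular lists and of the adipocyte and erythrocyte lists. Orange-red points are the 9 genes described here, open circles are genes not called, short bars are list medians and the dashed line is the median of all tested genes at -0.34. The endothelial list has most of its points right of 0, and the pericyte and smooth muscle lists are spread to both sides.

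Pericyte genes went both ways. Of a list of 25, 13 were held and tested, Abcc9 and Kcnj8 among them. Of the 13, 8 were called higher and 5 lower, beside 41.1% and 49.4% over all tested genes. Their median log2 difference was 0.63. Over protein-coding genes 3 were called higher and 2 lower. Pdgfrb rose alongside Abcc9 and Kcnj8, at 30.5, 21.4 and 21.3 FPKM in fasted mice, against 15.6, 12.9 and 9.72 FPKM in fed mice (log2 difference 0.89 ± 0.21, SE; limma adjusted p = 0.00736, and 0.0538 over protein-coding genes). Colec11, a secreted lectin, was the named pericyte gene that rose, at 1.13 ± 0.19 (SE; limma adjusted p = 0.00283). The other named genes of the list fell. Steap4, a metalloreductase also known from adipocytes, was at 42.8, 44.6 and 64.1 FPKM in fasted mice, against 320, 239 and 355 FPKM in fed mice (-2.57 ± 0.21, SE; limma adjusted p = 0.000373). Enpep, an aminopeptidase that cleaves angiotensin, was at -1.57 ± 0.35 (SE; limma adjusted p = 0.00653). Mcam, an adhesion molecule of mural and endothelial cells, was at -0.99 ± 0.23 (SE; limma adjusted p = 0.00710, and 0.0520 over protein-coding genes). The marker Cspg4, a proteoglycan of pericytes, was at 3.55, 1.71 and 2.22 FPKM in fasted mice, against 3.24, 9.79 and 5.15 FPKM in fed mice. Its groups overlapped, and its log2 difference was -0.94 ± 0.35 (SE; limma adjusted p = 0.0330, and 0.241 over protein-coding genes). The count of pericyte genes called lower was 3 without fasted replicate 2 or without fed replicate 3.

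Smooth muscle contractile genes, the list that holds Actg2 and Synpo2, were called in both directions. Of a list of 53, 23 were held and 21 tested, 11 were called higher and 10 lower, in shares near the 41.1% and 49.4% over all tested genes, with a median log2 difference of 0.58. Over protein-coding genes 2 were called higher and 6 lower. Mylk, the kinase that phosphorylates myosin light chain, was at 38.1, 29.9 and 25.7 FPKM in fasted mice, against 66.2, 66.2 and 71.8 FPKM in fed mice (-1.12 ± 0.16, SE; limma adjusted p = 0.00164). Rock2, a kinase that inhibits the opposing phosphatase, was at -0.99 ± 0.13 (SE; limma adjusted p = 0.00126). Vcl, the focal adhesion protein vinculin, was at -0.90 ± 0.13 (SE; limma adjusted p = 0.00185). Ppp1r14a, an inhibitor of myosin phosphatase in smooth muscle, rose by 1.09 ± 0.19 (SE; limma adjusted p = 0.00327). All 3 of those that fell are also widely expressed outside muscle.

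Actg2 was higher in fed replicate 1 than in the other fed libraries, and so were other filament genes. Of the 11 contractile genes called higher, fed replicate 1 was the highest fed library in 10, and fasted replicate 1 the highest fasted library in all 11. In other lists these libraries were highest to differing degrees. Among genes called higher, the counts were 9 and 10 of 13 BMP and TGF-beta genes and 14 and 18 of 27 endothelial genes. They were 3 and 7 of 10 vascular tone genes, 4 and 3 of 8 lipoprotein lipase and fatty acid genes, and 0 and 0 of 5 erythrocyte genes. The share over all genes was not counted. Tagln, an actin-binding protein of smooth muscle and a marker of the cell type, was at 130, 123 and 74.4 FPKM in fasted mice, against 59.5, 23.6 and 39.6 FPKM in fed mice (1.45 ± 0.34, SE; limma adjusted p = 0.00769, and 0.0563 over protein-coding genes). Myh11, the smooth muscle myosin heavy chain, was at 33.6, 25.9 and 15.2 FPKM in fasted mice, against 17.5, 5.41 and 6.44 FPKM in fed mice. Its groups overlapped through fasted replicate 3 and fed replicate 1, and its log2 difference was 1.37 ± 0.43 (SE; limma adjusted p = 0.0188, and 0.137 over protein-coding genes). Cnn1, the actin-binding calponin of smooth muscle, chosen after its values were seen, was at 11.7, 10.4 and 4.58 FPKM in fasted mice, against 4.21, 0.58 and 0.88 FPKM in fed mice. The 6 libraries fell in the same order in Actg2 and Cnn1. The Actg2 to Tagln ratio was 0.0654, 0.0640 and 0.0701 in fasted mice, against 0.0474, 0.00934 and 0.00985 in fed mice. Fasted ratios were close together and above all fed ones, with an exact permutation p of 0.1, the smallest possible.

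**Figure D5:**
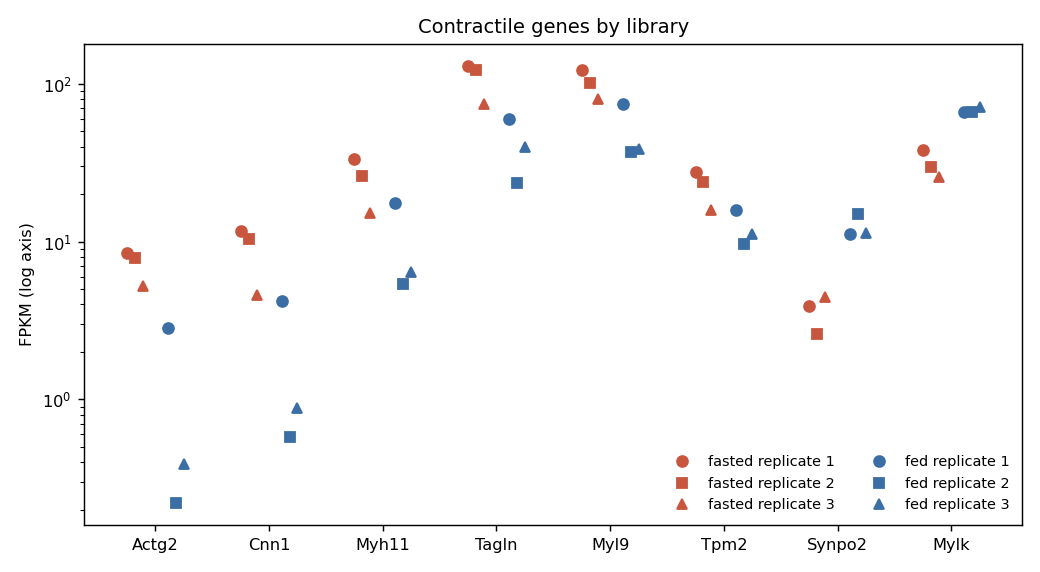
FPKM on a log axis of 8 smooth muscle genes in each library, with fasted replicates left of fed replicates and 1 marker shape per replicate number, which pairs no mice. For Actg2, Cnn1, Myh11, Tagln, Myl9 and Tpm2 the circle of fed replicate 1 is the highest fed marker, while Synpo2 and Mylk have all fasted markers below all fed markers.

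The families of the members were read gene by gene. Of the 8 actins listed, 4 were held. Actg1 and Actb, the actins of the cytoskeleton of all cells, were called lower in fasted tissue, at -0.59 ± 0.23 and -0.65 ± 0.26 (SE; limma adjusted p = 0.0384 and 0.0421). Neither was called after median-ratio scaling (0.131 and 0.121), over protein-coding genes (0.281 and 0.308), or without fasted replicate 3, fed replicate 2 or fed replicate 3. Actg1 was not called without fasted replicate 1 (0.0845), nor Actb without fasted replicate 2 (0.0570). Actc1, the cardiac actin, was under the filter, at 0.89, 1.58 and 0.60 FPKM in fasted mice, against 0.23, 0 and 0.08 FPKM in fed mice. Of 5 sialomucins, Podxl, known from endothelium and kidney podocytes, rose with Emcn, at 31.1, 38.8 and 24.4 FPKM in fasted mice, against 15.7, 14.4 and 15.8 FPKM in fed mice (0.97 ± 0.17, SE; limma adjusted p = 0.00347). Cd164, a sialomucin of many cell types, fell, at -0.66 ± 0.14 (SE; limma adjusted p = 0.00632). Of 12 aquaporins, Aqp5 was held beside Aqp1 and was called lower as well, with means of 0.433 FPKM in fasted and 2.01 FPKM in fed mice and a log2 difference of -1.06 ± 0.27 (SE; limma adjusted p = 0.00916, and 0.0671 over protein-coding genes). Aqp7, the glycerol channel of adipocytes, is not analysed here, and Synpo2 was the one synaptopodin gene of 3 held.

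The pathway that Eng serves was represented by 21 tested genes of a list of 59 of BMP and TGF-beta signalling. Of these 13 were called higher (Eng included) and 8 lower, beside 41.1% and 49.4% over all tested genes. The median log2 difference was 0.53, and over protein-coding genes 5 were called higher and 3 lower. Smad7, an inhibitor induced by the pathway, was at 5.79, 3.88 and 3.71 FPKM in fasted mice, against 1.91, 1.49 and 1.96 FPKM in fed mice (0.95 ± 0.19, SE; limma adjusted p = 0.00472). Fst, the secreted activin binder follistatin, rose by 1.31 ± 0.24 (SE; limma adjusted p = 0.00373), and its relative Fstl3 was at -1.28 ± 0.21 (SE; limma adjusted p = 0.00283). Tgfb3, a ligand, fell, at -0.82 ± 0.15 (SE; limma adjusted p = 0.00397). Smad6, the other inhibitor of this kind, and Id1, a BMP target, were picked once their values were known and rose by 0.95 ± 0.20 and 1.29 ± 0.39 (SE; limma adjusted p = 0.00602 and 0.0168). Id1 was not called over protein-coding genes (0.123). The count called lower was 4 without fasted replicate 1, 3 without fasted replicate 2, 5 without fed replicate 3 and 4 after median-ratio scaling.

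Genes that handle lipoprotein lipase and the passage of fatty acids form the list around Gpihbp1. Of 35 listed, 18 were tested, 8 were called higher and 9 lower, near the shares of 41.1% and 49.4% over all tested genes. The median log2 difference was -0.30, close to that of all genes, and over protein-coding genes 6 were called higher and 3 lower. Lpl itself and Cd36 are not analysed here. The named caveolar genes fell. Cav1, the scaffold protein of caveolae in endothelial cells and adipocytes, was at 532, 453 and 495 FPKM in fasted mice, against 1984, 2032 and 1807 FPKM in fed mice (-1.97 ± 0.13, SE; limma adjusted p = 0.000314). Cav2 was at -1.76 ± 0.19 (SE; limma adjusted p = 0.000772) and Cavin3, a caveolar coat protein, at -2.12 ± 0.25 (SE; limma adjusted p = 0.000973). Pcsk5, a protease of the family that cleaves lipoprotein lipase and its inhibitors, rose by 1.62 ± 0.19 (SE; limma adjusted p = 0.000973).

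Channels and receptors of vascular tone, the list that holds Abcc9 and Kcnj8, had 14 tested genes of 56. Of these 10 were called higher and 4 lower, beside 41.1% and 49.4% over all tested genes. The median log2 difference was 0.73, and over protein-coding genes 5 were called higher and 3 lower. Agtr1a, an angiotensin receptor, was at 22.1, 15.5 and 19.0 FPKM in fasted mice, against 6.23, 6.61 and 7.19 FPKM in fed mice (1.36 ± 0.16, SE; limma adjusted p = 0.000946). Trpv4, a calcium channel opened by stretch, rose by 1.60 ± 0.23 (SE; limma adjusted p = 0.00171). Oxtr, the oxytocin receptor, was at 0.66, 0.53 and 0.77 FPKM in fasted mice, against 19.0, 18.3 and 9.69 FPKM in fed mice (-3.28 ± 0.25, SE; limma adjusted p = 0.000340). Npr3, the clearance receptor of natriuretic peptides, which is also in the adipocyte list, fell, at -2.60 ± 0.33 (SE; limma adjusted p = 0.00125).

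Angiogenic ligands and receptors had 27 tested genes of 71, 14 called higher, 12 lower and 1 not called. Over all tested genes 41.1% were called higher and 49.4% lower. The median log2 difference of the list was 0.65. Over protein-coding genes 8 were called higher and 5 lower. Fgf2, an endothelial growth factor, was at -1.01 ± 0.14 (SE; limma adjusted p = 0.00179). Ephb4, a receptor of venous endothelium, rose by 1.12 ± 0.19 (SE; limma adjusted p = 0.00293), and Efnb1, an ephrin ligand, by 1.01 ± 0.15 (SE; limma adjusted p = 0.00211). Notch1, the receptor that restrains sprouting, rose by 0.82 ± 0.13 (SE; limma adjusted p = 0.00276).

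For each member the genes with the most similar pattern were found by Pearson's r of log2(FPKM + 1) over the 6 libraries, which are 2 clusters of 3 mice, so any gene that differs strongly between groups scores high and no p is given. Kcnj8 was the second most similar gene to Abcc9 and Abcc9 the most similar to Kcnj8, with r = 0.996, and Eml1 was among the closest to both. Pecam1 was closest to Yrdc and Trpv4 (0.999 each) and Retreg1 (0.998). Eng was closest to D16Ertd472e (0.999), Rps25 and Rpl37rt (0.998 each), and Gpihbp1 to N4bp2l2 (0.998), Baiap3 and Smad7 (0.997 each). Emcn was closest to Rftn1 and Ltbp4 (0.995 each) and Tomm20 (0.994), and Aqp1 to Cks1b and Fam114a1 (0.993 each) and Nipsnap3b (0.992). Actg2 was closest to Eps8 (0.999), Entpd2 (0.998) and Miip (0.995). Synpo2 was closest to Lep (0.998), the adipocyte hormone leptin, and to Lrrc39 and Paqr4 (0.997 each), and Abcc9 also to Scarf2 (0.997) and Eml1 (0.993).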

How the data were processed

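RNA of epididymal white adipose tissue was sequenced from 6 mice. Libraries were grouped by treatment, 3 mice each; replicates were numbered by accession, which pairs no mice. The deposited values are FPKM, per the file headers, and RSEM with builds mm10 and GRCm38.p6 is named in the submitters' processing notes, without its version, the aligner, the annotation release or strand use. Depth is unknown and no counting interval is given. The authors deposited 3162 genes, of which 3158 IDs were matched to symbols in GENCODE (GRCm38).

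Values were transformed to log2(FPKM + 1), and the 2999 genes averaging 1 FPKM or more were fitted with limma 3.58.1 (R 4.3.3, trended variance), fasted minus fed, two-sided, with Benjamini-Hochberg adjustment over all of them. The procedure was tested on simulated data in which most genes had no change. In the measured values 90.5% of genes were called, so that test does not cover this setting. Ratios within a library were compared by exact permutation tests. Members and gene lists were chosen with earlier results of these data known. Named genes were the 9 members, the 4 other genes of each vascular list with the smallest p, every family gene held and the 3 genes most similar to each member. Alternatives were a pseudocount of 0.1, no filter, median-ratio and quantile scaling, adjustment over 21951 protein-coding genes, no variance trend, and leaving out each library.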

Additional observations from a re-analysis of the deposited data

How the results depend on the processing

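No member, and no tested gene named by the smallest p or as a family gene, changed direction under any alternative. Genes named only as cell markers, for similarity to a member or after their values were seen were not followed there. The calls of Pecam1, Eng, Gpihbp1, Actg2, Abcc9, Kcnj8 and Synpo2 held in all 12 alternatives. After quantile scaling 0 endothelial members were called lower, because Aqp1 was lost. Adjustment over protein-coding genes left 1052 of all genes called, 557 higher and 495 lower. By list it left endothelial genes 12 higher and 4 lower, pericyte genes 3 and 2, smooth muscle genes 2 and 6, angiogenic genes 8 and 5, and BMP and TGF-beta genes 5 and 3. It left lipoprotein lipase and fatty acid genes 3 lower and vascular tone genes 5 higher. Median-ratio scaling left 787 of all genes lower, and lower calls of 4 endothelial, 3 pericyte and 4 BMP and TGF-beta genes, and quantile scaling left 3 endothelial genes lower. Leaving out each library in turn gave 5 to 8 endothelial, 3 to 5 pericyte and 3 to 8 BMP and TGF-beta genes lower. Leaving out a library removes a sample, and for the other losses the cause was not tested. No paired analysis was possible because the labels number no mice. Depth is unknown, so the precision of low values such as those of Actg2 in fed mice cannot be given. The limma p-values weigh each difference against the spread among 3 mice a group, adjusted by a trend over all tested genes. The authors may have kept these genes for differing between these libraries.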
